A study of Mus musculus with 10 samples.

Results

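The mouse mitochondrial genome was followed gene by gene in kidney RNA from C57BL/6 mice, a widely used inbred strain, kept for 30 days at 400 m (control, 5 libraries) or at 4200 m (hypoxia, 5 libraries). Its genes were taken as all entries of the deposited expression table on chromosome MT, which gave 37 of 55952 entries: 13 protein-coding genes, 2 ribosomal RNAs and 22 transfer RNAs. RNA was read by bulk sequencing, and the deposited unit is FPKM, which divides a gene's fragments by gene length and library size. The labels give no genotype difference, age or other agent, and whether the libraries come from separate mice is not stated, so p-values rest on the spread between libraries. Each group was housed at its own altitude, so altitude and site cannot be told apart. In bulk RNA, fewer cells of a type and less RNA per cell cannot be told apart either.

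The mitochondrial genome is a small circle held in many copies per cell. It encodes core subunits of complexes I, III and IV of the respiratory chain and of ATP synthase, together with the ribosomal and transfer RNAs that translate them, while all other subunits are encoded in the nucleus. Both strands are transcribed as long precursors that are cut mostly at the transfer RNAs, so neighbouring genes share a primary transcript and their final levels also reflect processing and stability. Proximal tubule cells, the most abundant cells of the kidney cortex, are rich in mitochondria and depend on their ATP for reabsorption.

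The libraries held 16561672 to 17845464 reads assigned to genes, and 3 reads on a gene of 1 kb correspond to 0.165 to 0.183 FPKM. Hypoxia replicates 4 and 5 stood apart. The 8 adrenal cortex markers summed to 1067.2 FPKM in replicate 4, against at most 1.68 FPKM among controls and hypoxia replicates 1 to 3. The 8 B cell markers summed to 2018.6 FPKM in replicate 5, against at most 18.1 FPKM there. Fat markers were highest in replicate 4 (676 FPKM) and blood markers in replicate 5 (6560.1 FPKM). The 12 proximal tubule markers summed to 6244.7 to 7671.3 FPKM in controls, 6286.7 to 6857.5 FPKM in hypoxia replicates 1 to 3, 6070.1 FPKM in replicate 4 and 3489.5 FPKM in replicate 5. The labels' extraction protocol names retina although every sample is labelled kidney. The 8 retina markers summed to 0.836 to 5.58 FPKM, with 3 of them at 0 in all libraries. Results are therefore given with all libraries. Where a call was lost or gained or a value moved by over 1.5 times, many are also given without hypoxia replicates 4 and 5.

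Much of the middle of the mitochondrial genome has a near-identical copy in the nuclear genome, which bears on how reads can be assigned, so the sequences are shown first. Every 100-base window of each gene was looked for in the GRCm38 transcripts of genes on other chromosomes. Between 97.6% and 99.9% of windows were found for mt-Co2 (99.5%), mt-Atp6 (99.5%), mt-Co3 (99.9%), mt-Nd3 (97.6%) and mt-Nd4l (98.5%). The share was 60.8% for mt-Nd4, 30.8% for mt-Co1 and 3.19% for mt-Nd2. It was 0 for mt-Nd1, mt-Nd5, mt-Nd6, mt-Cytb, mt-Atp8, mt-Rnr1 and mt-Rnr2.

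A run of 7 adjoining unprocessed pseudogenes on the minus strand of chr1:24611535-24616197 holds most of these matches. They run in the order of the mitochondrial genes from the end of mt-Co1 (Gm29216) through mt-Co2 (Gm28661), mt-Atp6 (Gm10925), mt-Co3 (Gm28437), mt-Nd3 (Gm28438) and mt-Nd4l (Gm10222) into mt-Nd4 (Gm28439). Together they span 4663 bases, where the matching stretch of the mitochondrial genome, chrMT:6381-11042, spans 4662. Of 4149 aligned bases, 7 differ. The gap between the Gm28661 and Gm10925 transcripts is 233 bases long, as is the gap between the matching parts of mt-Co2 and mt-Atp6, where mt-Atp8 lies. The bases in that gap belong to no transcript and were not read, so the value of 0 for mt-Atp8 says only that it was not found in nuclear transcripts.

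The first 60 bases of mt-Co2, chrMT:7013-7072, and of Gm28661, chr1:24615506-24615565 on the minus strand, show how alike these pairs are. They hold no difference, and Gm28661 matches mt-Co2 over all of its 681 bases.
mt-Co2 start: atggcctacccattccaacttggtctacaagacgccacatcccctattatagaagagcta
Gm28661 start: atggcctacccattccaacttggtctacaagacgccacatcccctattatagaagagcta

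Where the copies differ, the differences are few. In the pairs below, capitals mark the bases that differ, positions count from base 1 of the mitochondrial gene, and the mitochondrial base is named first. Gm28438 has the single substitution T3C over 345 bases of mt-Nd3.
mt-Nd3 bases 1 to 27: atTaacctgtacactgttatcttcatt
Gm28438: atCaacctgtacactgttatcttcatt
Gm29216 carries 6 substitutions over 492 bases of mt-Co1, all within its first bases: T1056A, C1057T, A1059G, A1060G, C1062A and A1066T.
mt-Co1 bases 1054 to 1080: ggTCtAAcCggaAttgttttatccaac
Gm29216: ggATtGGcAggaTttgttttatccaac
A further copy of mt-Co1 on chromosome 2, Gm13340 (chr2:22588103-22589647), has 37 substitutions over 1545 bases, an identity of 97.61%, beginning with C54A and A60G.
mt-Co1 bases 29 to 78: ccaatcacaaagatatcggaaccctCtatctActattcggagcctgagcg
Gm13340: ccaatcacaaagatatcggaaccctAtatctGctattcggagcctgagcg

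A last sequence is that of mt-Atp8, chrMT:7766-7969, because it had the largest decrease of the mitochondrial genes and shares bases with its neighbour. Capitals mark the 43 bases that also belong to mt-Atp6, chrMT:7927-8607.
mt-Atp8: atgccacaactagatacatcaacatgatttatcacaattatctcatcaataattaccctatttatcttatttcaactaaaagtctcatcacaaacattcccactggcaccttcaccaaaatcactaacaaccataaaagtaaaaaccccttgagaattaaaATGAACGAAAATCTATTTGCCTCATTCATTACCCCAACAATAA

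Reads from the mitochondrial genome made up 9.28, 8.86, 9.72, 8.68 and 8.71% of all reads assigned to genes in control replicates 1 to 5, a mean of 9.05 ± 0.444% (SD, n = 5). They made up 11.8, 10.1, 10.8, 12.3 and 8.50% in hypoxia replicates 1 to 5, a mean of 10.7 ± 1.49%. Hypoxia replicates 1 to 4 all lay above the highest control, and replicate 5, the library with the fewest proximal tubule transcripts, lay below the lowest. The mean of hypoxia replicates 1 to 3 was 10.9 ± 0.852% (n = 3). As a sum over the genes chosen, the share was not tested. The part of the other tissues in it was not tested either.

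**Figure D1:**
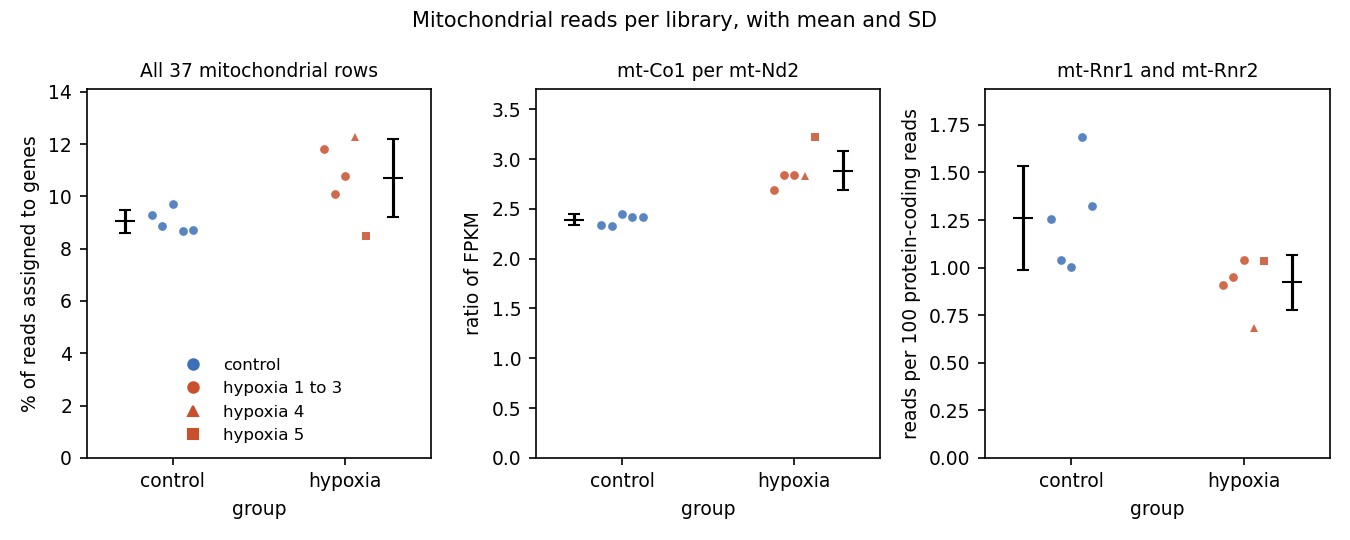
Panels by group with 1 point per library and bars for mean and SD (n = 5): the % of reads from the 37 mitochondrial genes, the ratio of mt-Co1 to mt-Nd2 FPKM, and mitochondrial rRNA reads per 100 protein-coding reads. Hypoxia replicate 5 (square) has the lowest share of mitochondrial reads, 8.50%, while the mt-Co1 to mt-Nd2 ratio is 2.69 to 3.22 in hypoxia and 2.33 to 2.45 in controls.

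In the test across all genes, 0 mitochondrial genes rose and 3 fell among the 32 that passed the filter of a mean of at least 0.5 FPKM. These were mt-Co2, mt-Atp8 and mt-Atp6, all of them protein-coding. The test was limma on log2(FPKM + 0.5), a scale that understates the change of low genes, with Benjamini-Hochberg adjustment over 15264 genes and a threshold of 0.05. By the same test 3.66% of all genes tested rose and 7.79% fell (559 and 1189 genes), so 3 of 32 is near the background. Scaling libraries to the reads outside the mitochondrial genome moved the median of all genes to 0.097 and the calls to 1018 higher (6.66%) and 830 lower (5.43%), with the same 3 mitochondrial genes lower and mt-Tr higher. At an unadjusted p under 0.05, 3 mitochondrial genes were higher and 7 lower, beside 12.3% and 16.8% of all genes tested. Limma voom on the recovered reads called 0 higher and 3 lower, beside 3.07% and 7.94%. The median log2 fold change, hypoxia minus control, was -0.03 over the 13 protein-coding genes, beside 0.01 over all genes tested. It turned to 0.067 with that scaling and was 0.057 without hypoxia replicates 4 and 5. The genes differed widely in level, with a step in the middle of the genome (the plot of FPKM by gene and library).

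**Figure D2:**
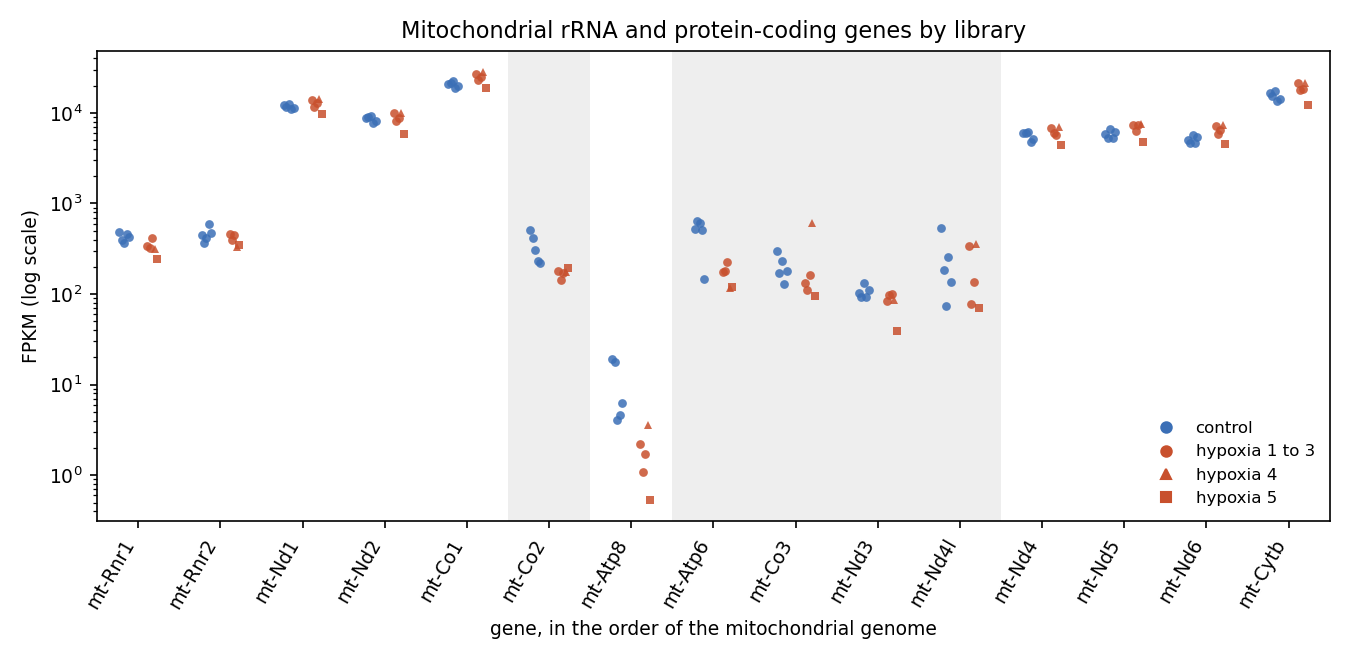
FPKM on a log axis for the 2 rRNA and 13 protein-coding genes in the order of the mitochondrial genome, 1 point per library, control in blue and hypoxia in red with replicates 4 and 5 as their own symbols. Shading marks the 5 genes with at least 90% of 100-base windows in nuclear transcripts, whose means over all libraries are at most 324 FPKM, where the abundant protein-coding genes are at 5700 FPKM or more.

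Of the 7 subunits of complex I, which takes electrons from NADH, none passed the test. No member had an unadjusted p under 0.05, and voom called 0. The core membrane subunit mt-Nd1 had 10929 to 12682.5 FPKM in controls and 9669.7 to 14322 FPKM in hypoxia (limma log2 fold change 0.08, SE 0.141, adjusted p = 0.735). The values of mt-Nd4 were 4826 to 6204 FPKM and 4427 to 7071 FPKM (0.09, SE 0.155, adjusted p = 0.741), and those of mt-Nd5 5280.4 to 6635 FPKM and 4712 to 7512 FPKM (0.17, SE 0.158, adjusted p = 0.478). Leaving out hypoxia replicates 4 and 5 gave log2 fold changes of 0.13 for mt-Nd1, 0.14 for mt-Nd4 and 0.27 for mt-Nd5, none of them called. These are subunits of the membrane arm. In each of them the hypoxia values lay on both sides of the control range, with replicate 4 highest and replicate 5 lowest.

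The membrane subunit mt-Nd2 had 8843, 9053, 9123, 7766 and 8151 FPKM in control replicates 1 to 5 and 9952, 8057, 8831, 9962 and 5917 FPKM in hypoxia replicates 1 to 5. The groups overlapped fully, and its log2 fold change of -0.03 (limma, SE 0.162, adjusted p = 0.918) turned positive under the scaling to reads outside the mitochondrial genome (0.067). mt-Nd6, the sole protein-coding gene on the minus strand, had 5028, 4632, 5770.4, 4611 and 5441 FPKM in controls and 7224, 5915, 6436, 7365 and 4573 FPKM in hypoxia. Hypoxia replicates 1 to 4 exceeded every control and replicate 5 was the lowest of all libraries, so the log2 fold change of 0.29 (SE 0.155) had an adjusted p of 0.237 in limma. Without hypoxia replicate 5 it was 0.40 with an adjusted p of 0.0223, and without replicates 4 and 5 it was 0.36 with an adjusted p of 0.0639. The last 14 bases of mt-Nd5 lie over mt-Nd6 on the opposite strand, and the counting is not stated to use strand, so reads there, and antisense reads in general, cannot be told apart.

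The 2 remaining complex I genes lie in the stretch copied to chromosome 1 and were far less abundant. mt-Nd3 had 92.5 to 132.4 FPKM in controls and 83.0, 97.9, 99.9, 86.1 and 39.4 FPKM in hypoxia replicates 1 to 5 (limma log2 fold change -0.45, SE 0.237, adjusted p = 0.234). Without replicates 4 and 5 its log2 fold change was -0.18 (adjusted p = 0.388). mt-Nd4l ranged from 74.4 to 541.7 FPKM in controls and from 70.4 to 354.4 FPKM in hypoxia (-0.31, SE 0.602, adjusted p = 0.757). Its coefficient of variation among controls was 76.4%, beside 5.89% for mt-Nd1. With this spread a difference of the size seen for mt-Nd4l could not be told from none.

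mt-Cytb, the mitochondrial subunit of complex III, had 16534, 15382, 17404, 13490.4 and 14138 FPKM in control replicates 1 to 5. In hypoxia replicates 1 to 5 it had 21205, 17672, 18545, 21366 and 12335 FPKM. As for mt-Nd6, hypoxia replicates 1 to 4 lay above all controls and replicate 5 below all of them. The log2 fold change was 0.22 (limma, SE 0.175, adjusted p = 0.413), and 0.36 with an adjusted p of 0.0384 without replicate 5. Without replicates 4 and 5 it was 0.32 and not called (adjusted p = 0.103).

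The catalytic core of complex IV, cytochrome c oxidase, is formed by mt-Co1, mt-Co2 and mt-Co3, and these genes did not move alike. mt-Co1, which carries the haem and copper centre where oxygen is reduced, had the highest mean FPKM of all genes in the table. It had 20707, 21106, 22325, 18829 and 19733 FPKM in controls and 26769, 22856, 25112, 28179 and 19045 FPKM in hypoxia (limma log2 fold change 0.24, SE 0.144, adjusted p = 0.294). Hypoxia replicates 1 to 4 were above every control and replicate 5 was within their range. Without replicate 5 the log2 fold change was 0.32 (adjusted p = 0.0320), and without replicates 4 and 5 it was 0.28 (adjusted p = 0.0906).

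mt-Co2, which receives electrons from cytochrome c, fell. It had 505, 415, 306, 233.1 and 220.0 FPKM in control replicates 1 to 5 and 178, 143, 169.5, 176.0 and 194 FPKM in hypoxia replicates 1 to 5. The groups did not overlap, the means were 335.7 ± 122.1 and 172.2 ± 18.6 FPKM, and the controls alone spanned more than a factor of 2. Of all genes tested, 8.54% were lower with no overlap of the groups and 5.68% higher, beside 2 lower (mt-Co2 and mt-Atp8) and 1 higher (mt-Tr) of the 32 mitochondrial genes. For mt-Tr the FPKM did not overlap but the read counts did. The log2 fold change of mt-Co2 was -0.89 (limma, SE 0.222, adjusted p = 0.0295), and -0.97 without hypoxia replicates 4 and 5 (adjusted p = 0.0484). The call was lost in 7 of 10 fits without 1 library, with an adjusted p of up to 0.0761 (without control replicate 2). mt-Co3 had 127.8 to 296.0 FPKM in controls and 131.1, 109.7, 161.8, 608.9 and 96.1 FPKM in hypoxia replicates 1 to 5 (-0.19, SE 0.458, adjusted p = 0.805), and replicate 4 alone stood far above the rest. Without replicates 4 and 5 its log2 fold change was -0.54 (adjusted p = 0.200).

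Both mitochondrial subunits of ATP synthase fell. mt-Atp6, the subunit of the proton channel, had 526, 642, 603, 503.7 and 147.1 FPKM in control replicates 1 to 5 and 174.5, 179.7, 228.7, 117 and 118 FPKM in hypoxia replicates 1 to 5. Control replicate 5 lay within the range of the hypoxia libraries, and the other 4 controls were at 503.7 FPKM or more. Group means were 484.3 ± 196.7 and 163.7 ± 47.0 FPKM (limma log2 fold change -1.45, SE 0.384, adjusted p = 0.0369). Without hypoxia replicates 4 and 5 the call was lost (-1.16, adjusted p = 0.127), and it was lost in 6 of 10 fits without 1 library, with an adjusted p of up to 0.0918 (without control replicate 2).

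mt-Atp8, a small subunit of the membrane part of ATP synthase, rested on few reads. It had 65, 60, 14, 17 and 21 reads in control replicates 1 to 5 and 8, 4, 6, 13 and 2 reads in hypoxia replicates 1 to 5, which is 4.09 to 19.0 FPKM and 0.538 to 3.59 FPKM. No hypoxia library reached the lowest control, although hypoxia replicate 4 with 13 reads and control replicate 3 with 14 were nearly equal, and replicate 5 was under the floor of 3 reads. The log2 fold change was -2.09 (limma, SE 0.494, adjusted p = 0.0247), and -2.07 without hypoxia replicates 4 and 5 (adjusted p = 0.0374). It was lost without control replicate 1 (adjusted p = 0.0623) and without control replicate 2 (0.0638), the 2 controls with the most reads. Reads in the 43 bases shared with mt-Atp6, printed in capitals above, cannot be assigned to one gene.

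**Figure D3:**
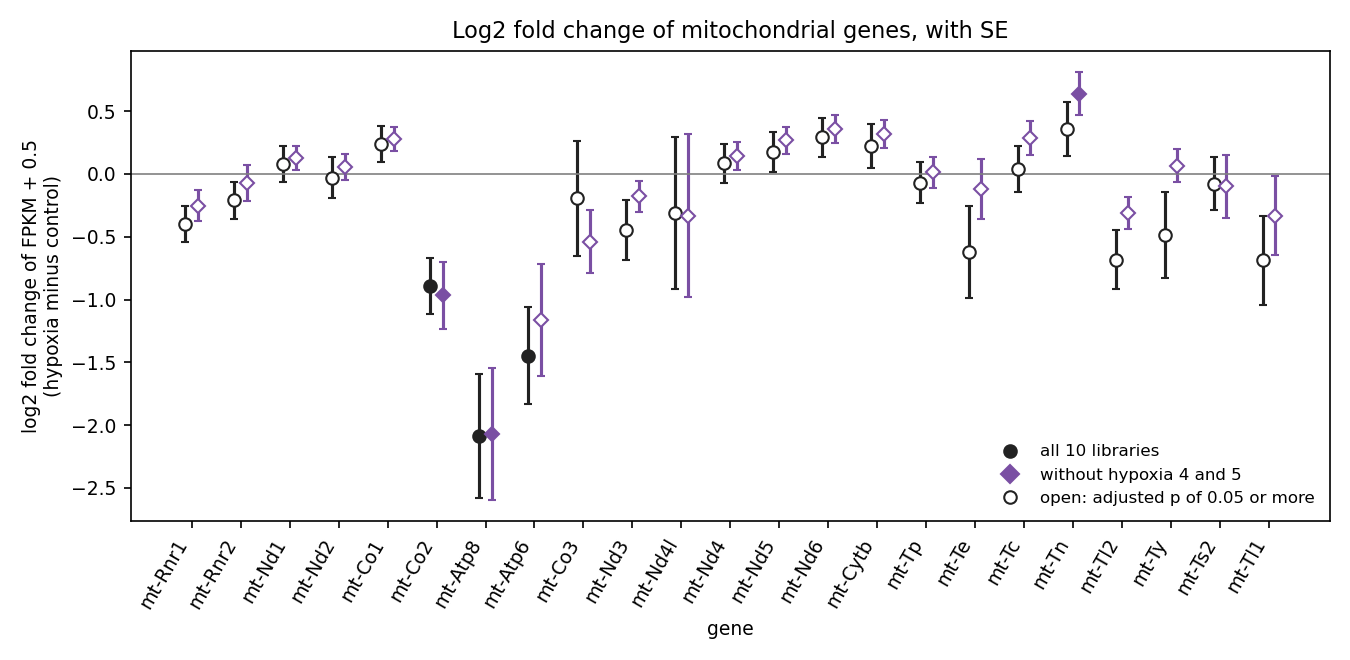
Log2 fold change on the log2(FPKM + 0.5) scale, hypoxia minus control, with SE bars, for the 15 rRNA and protein-coding genes in genome order and the 8 most abundant tRNA genes, with all 10 libraries (circles) and without hypoxia replicates 4 and 5 (diamonds). Filled symbols passed the limma test: mt-Co2, mt-Atp8 and mt-Atp6 with all libraries, and mt-Co2, mt-Atp8 and mt-Tn without replicates 4 and 5.

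The genes that fell belong to the low-level group in the middle of the genome. The 5 genes with at least 90% of windows in nuclear transcripts were lower in 2 cases, and their log2 fold changes had a median of -0.45, or -0.54 with 1 of 5 lower without hypoxia replicates 4 and 5. Leaving out mt-Atp8, the 6 genes with under 50% of windows stood at a median of 0.20, or 0.27 without those replicates, and 0 of 6 were called by limma with all libraries (0 also at an unadjusted p under 0.05 and in voom). The lowest of these 6, mt-Nd6 at a mean of 5700 FPKM over all libraries, was 17.6 times the highest of the 5, mt-Atp6 at 324 FPKM. mt-Nd4, matched over its first 876 of 1378 bases, was at 5811 FPKM (the plot of level against share of windows). Low level and negative values were not confined to matched genes. With 0% of windows, mt-Rnr1 and mt-Rnr2 were at 377.3 and 429.6 FPKM with log2 fold changes of -0.40 and -0.21, neither called. mt-Atp8, also at 0%, was at 6.10 FPKM and -2.09, and was called. The share of mitochondrial protein-coding reads in the 5 genes was 1.20, 1.02, 0.865, 0.863 and 0.539% in controls and 0.405, 0.370, 0.443, 0.677 and 0.424% in hypoxia, and the groups overlapped through hypoxia replicate 4. How the counting treated reads with several matches is not given in the sources used here, and its part in these 3 decreases was not tested.

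**Figure D4:**
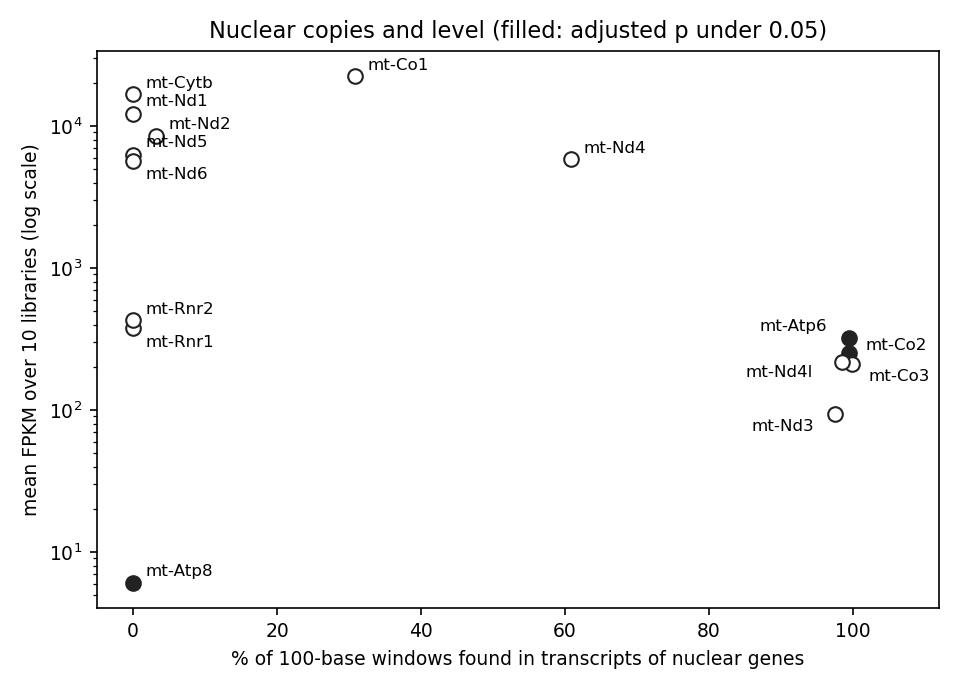
Mean FPKM over 10 libraries (log axis) against the % of 100-base windows found in transcripts of nuclear genes, 1 point per mitochondrial rRNA or protein-coding gene, filled where the limma adjusted p was under 0.05. The 5 genes above 90% lie at 93.9 to 324 FPKM, and the filled points are mt-Co2, mt-Atp6 and mt-Atp8.

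The copies on chromosomes 1 and 2 were themselves given reads. Of 9 pseudogenes with at least 95% identity to a mitochondrial gene and at least 10 reads in some library, 0 passed the limma test. At an unadjusted p under 0.05, 3 were lower and 0 higher, beside 16.8% and 12.3% of all genes tested. Voom called 1 lower, beside 7.94%. Gm28661, the copy of mt-Co2, had 181, 156, 135.9, 137.1 and 96.7 FPKM in controls and 115.1, 85.1, 83.2, 108.6 and 79.8 FPKM in hypoxia. Its groups overlapped through control replicate 5 and its log2 fold change was -0.57 (SE 0.172, adjusted p = 0.0569). Gm28661 was called in voom (adjusted p = 0.0453) and in limma with replicate number as a block (adjusted p = 0.0416). In limma fits without 1 library it was called in 1 and not called in 9. Gm10925, the copy of mt-Atp6, was at 125 to 197 FPKM in controls and 110.5 to 159.7 FPKM in hypoxia (-0.23, SE 0.150, adjusted p = 0.321).

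For each pair the reads given to the nuclear copy can be set against those given to the pair. The copy of mt-Co2 held 26.4 to 36.9% of the reads of its pair in controls and 29.0 to 39.2% in hypoxia, so these ranges overlapped almost fully. The copy of mt-Atp6 held 27.2, 23, 20.6, 25 and 45.9% in controls and 46.5, 42.1, 40.9, 57.6 and 48.2% in hypoxia. For mt-Atp6 the hypoxia libraries were thus above 4 of 5 controls, and the exception was again control replicate 5. The copy of mt-Co3 held 23.4 to 30.4% in controls and 41.1, 36.4, 30.1, 10.7 and 35.7% in hypoxia replicates 1 to 5. The ranges overlapped widely for the copies of mt-Nd3 (11.1 to 24.5% and 12.6 to 25.8%) and mt-Nd4l (9.72 to 44.5% and 9.98 to 37.2%). Over the 9 copies the median log2 fold change was -0.23, or -0.18 without hypoxia replicates 4 and 5, beside 0.01 over all genes, and 8 of 9 values were negative. Gm28437 (mt-Co3) had a log2 fold change of -0.03 (limma adjusted p = 0.927) and Gm28439 (mt-Nd4) one of -0.03 (adjusted p = 0.932), and both turned positive under the scaling to reads outside the mitochondrial genome (0.070 and 0.067). Gm10222 (mt-Nd4l) was at -0.35 (adjusted p = 0.136), Gm28438 (mt-Nd3) at -0.32 (adjusted p = 0.467), and Gm13340 (mt-Co1, chromosome 2) at -0.52 (adjusted p = 0.113). Leaving out hypoxia replicates 4 and 5 gave -0.18 for Gm10222, -0.05 for Gm28438 and -0.20 for Gm28439. Gm13339 (mt-Nd2, chromosome 2) was at -0.19 (adjusted p = 0.705) and Gm29216 (end of mt-Co1) at 0.78 (adjusted p = 0.384), where hypoxia replicate 5 alone had 789.8 FPKM and the value without replicates 4 and 5 was 0.20.

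**Figure D5:**
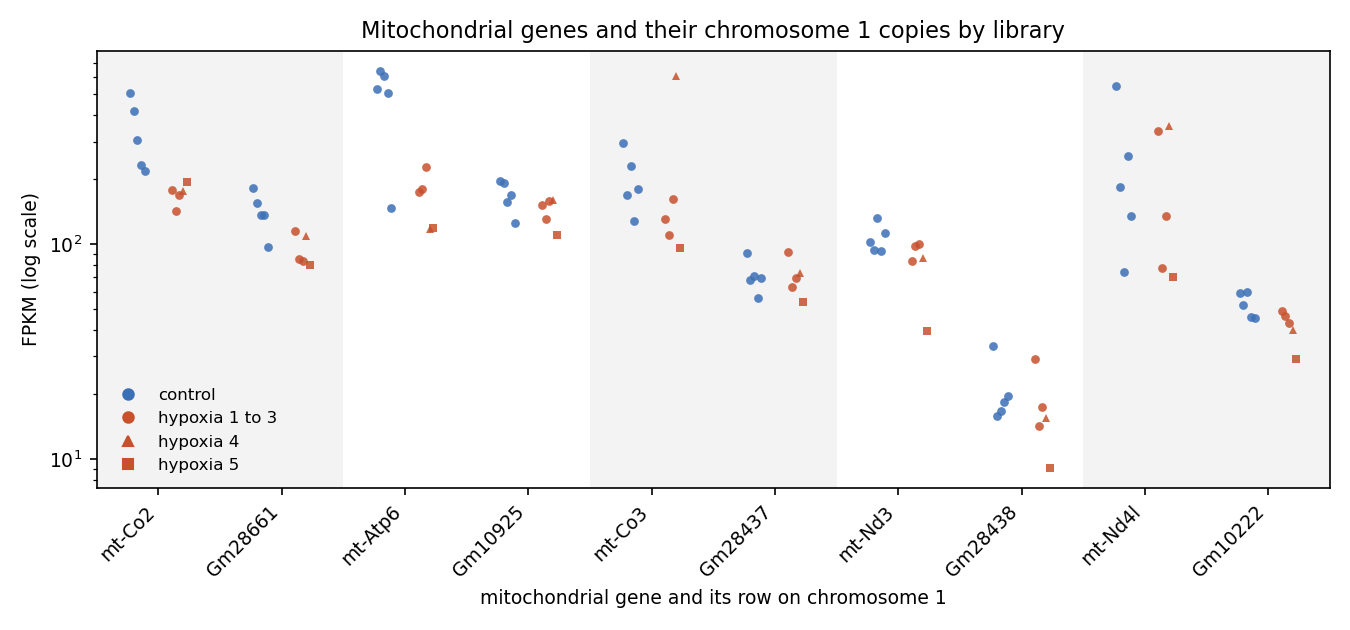
FPKM on a log axis of 5 mitochondrial genes and, to the right of each, its pseudogene on chromosome 1, 1 point per library, control in blue and hypoxia in red. mt-Co2 and mt-Atp6 lie lower in hypoxia, mt-Co3 has 1 high library (hypoxia replicate 4, 608.9 FPKM), and the pseudogenes overlap between groups.

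Among the 7 abundant genes, which lie at 5700 FPKM or more, the ratios between genes do not depend on how a library is scaled. Ratios were formed after the values had been seen and are given as a description. mt-Co1 per mt-Nd2 was 2.34, 2.33, 2.45, 2.42 and 2.42 in control replicates 1 to 5 and 2.69, 2.84, 2.84, 2.83 and 3.22 in hypoxia replicates 1 to 5. The groups did not overlap, and hypoxia replicate 5, which had low levels of every abundant mitochondrial gene, had the highest ratio. mt-Cytb per mt-Nd2 was 1.70 to 1.91 in controls and 2.08 to 2.19 in hypoxia, and mt-Nd6 per mt-Nd2 was 0.512 to 0.667 and 0.726 to 0.773. Of the 21 ratios among the 7 genes, 5 separated the groups, and 4 of these 5 hold mt-Nd2. The other was mt-Nd1 per mt-Co1 (0.555 to 0.588 against 0.508 to 0.524). Among the 4, mt-Nd1 per mt-Nd2 separated only narrowly (1.29 to 1.41 in controls, 1.41 to 1.63 in hypoxia). The 4 share mt-Nd2 and are not independent, and how often ratios of other genes separate the groups was not examined. mt-Nd2 took 9.42 to 10.2% of mitochondrial protein-coding reads in controls and 8.05 to 8.87% in hypoxia, and mt-Co1 33.9 to 35.4% and 35.5 to 38.6%. In hypoxia the mixture of mitochondrial messenger RNAs thus held relatively less mt-Nd2 than in controls, in 5 of 5 libraries against 5 of 5, while the FPKM of mt-Nd2 itself was not called.

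The ribosomal RNAs mt-Rnr1 (12S) and mt-Rnr2 (16S), the RNA core of the mitochondrial ribosome, were not called. mt-Rnr1 had 485, 390, 365, 465 and 431.5 FPKM in control replicates 1 to 5 and 336.8, 321.4, 420, 312 and 246 FPKM in hypoxia replicates 1 to 5. The groups overlapped through hypoxia replicate 3, and the log2 fold change was -0.40 (limma, SE 0.146, adjusted p = 0.101, unadjusted p = 0.0198). mt-Rnr2 had 370.5 to 597.7 FPKM and 328.3 to 464.4 FPKM (-0.21, SE 0.149, adjusted p = 0.367). Their log2 fold changes were -0.25 for mt-Rnr1 (adjusted p = 0.215) and -0.07 for mt-Rnr2 (0.792) when hypoxia replicates 4 and 5 were left out. Set against the messenger RNAs, there were 1.26 ± 0.274 rRNA reads per 100 protein-coding reads in controls (range 1.00 to 1.69). In hypoxia there were 0.922 ± 0.147 (range 0.680 to 1.04), and control replicate 3 lay within the hypoxia range. Over all libraries mt-Rnr1 and mt-Rnr2 had means of 377.3 and 429.6 FPKM, far below the abundant messenger RNAs. How far library preparation removed rRNA was not examined, so the ratio describes sequenced reads and not the balance in the cell.

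The transfer RNA genes, 59 to 75 bases long, decode the mitochondrial messages and mark the cutting sites of the precursors. Of 22, 17 passed the filter and 0 of them the limma test. At an unadjusted p under 0.05, 3 were higher and 3 lower, beside 12.3% and 16.8% of all genes tested, and voom called 0. mt-Tf, mt-Ts1 and mt-Td had no read in any library, which allows up to 3 reads each by counting error, and mt-Tk and mt-Tt had at most 1 and 3 reads. The most abundant were mt-Tp (proline) at a mean of 1752 FPKM over all libraries, mt-Te (glutamate) at 477 FPKM, mt-Tc (cysteine) at 448 FPKM and mt-Tn (asparagine) at 219.9 FPKM. These 4 are all among the 8 tRNA genes of the minus strand, on which no protein-coding gene but mt-Nd6 lies. Since the counting is not stated to use strand, reads of these genes and antisense reads from the other strand cannot be told apart. Nor can reads of mature tRNA and of uncut precursors.

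mt-Tp was at 1464 to 1994 FPKM in controls and 1196 to 2008 FPKM in hypoxia (limma log2 fold change -0.07, SE 0.163, adjusted p = 0.803). mt-Te, which lies next to mt-Nd6 on the same strand, was at 386.0 to 757.4 FPKM in controls and at 677.2, 372.6, 492.0, 312.8 and 139.9 FPKM in hypoxia replicates 1 to 5 (-0.62, SE 0.368, adjusted p = 0.284). For mt-Te this became -0.12 (adjusted p = 0.786) when hypoxia replicates 4 and 5 were left out. mt-Tn was at 157.0 to 256.5 FPKM in controls and at 236.2, 330.3, 319.6, 200.8 and 160.7 FPKM in hypoxia. It was called higher only without hypoxia replicates 4 and 5 (0.64, adjusted p = 0.0418, against 0.36 and 0.283 with all libraries). In that comparison 4.53% of all genes tested rose and 7.75% fell, and of the mitochondrial genes 1 rose and 2 fell. mt-Tr (arginine) was the tRNA gene whose groups did not overlap in FPKM, at 13.2 to 25.1 FPKM in controls and 25.2 to 36.9 FPKM in hypoxia (0.53, SE 0.172, adjusted p = 0.0720). Its read counts did overlap, at 15 to 31 reads in controls and 30 to 43 in hypoxia. mt-Tr was named after its values were seen. The other abundant tRNA genes were mt-Tc at 0.04 (adjusted p = 0.905), mt-Tl2 at -0.68 (0.0856), mt-Ty at -0.49 (0.360), mt-Ts2 at -0.08 (0.830) and mt-Tl1 at -0.69 (0.222). Leaving out hypoxia replicates 4 and 5 moved these to 0.28 for mt-Tc, -0.31 for mt-Tl2, 0.07 for mt-Ty and -0.33 for mt-Tl1, and none was called.

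The nuclear genes that transcribe, process and translate the mitochondrial genome were taken as 8 lists. Of 143 members tested, 24 fell and 1 rose, beside 7.79% and 3.66% of all genes. Without hypoxia replicates 4 and 5, 20 fell and 1 rose, beside 7.75% and 4.53% of all genes. With scaling to the reads outside the mitochondrial genome 16 fell and 2 rose, beside 5.43% and 6.66%. In the main fit the decreases lay mostly with translation and complex IV assembly rather than with transcription. With that scaling, 2 of 23 genes that load the tRNAs fell, beside 1 of 11 transcription genes. Translation factors (5 of 15) and complex IV assembly factors (6 of 19) kept their counts. The lists were not tested against each other.

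Of 11 genes of mitochondrial transcription, 1 fell and the median was 0.03. It was Mrpl12, a ribosomal protein that also binds the mitochondrial RNA polymerase (123.4 ± 12.6 to 86.4 ± 13 FPKM, log2 fold change -0.52, limma adjusted p = 0.0221). Of 22 genes of DNA replication and upkeep, 2 fell, Lig3, a DNA ligase (-0.24, adjusted p = 0.0345), and Mgme1, an exonuclease (-0.24, 0.0469). Neither was called without hypoxia replicates 4 and 5 or with scaling to the reads outside the mitochondrial genome. Of 27 genes of RNA processing and decay, 1 fell and 1 rose: the RNA helicase Dhx30 (-0.31, adjusted p = 0.0144, but 0.0736 with that scaling) and Angel2 (0.25, adjusted p = 0.0189). Of 20 genes of tRNA and rRNA modification, 2 fell, the pseudouridine synthase Pus1 (-0.50, adjusted p = 0.0117) and the rRNA methyltransferase Mrm2 (-0.38, adjusted p = 0.0230).

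Of 23 mitochondrial aminoacyl-tRNA synthetases, which load the tRNAs, 7 fell and 0 rose, with a median of -0.24. With scaling to the reads outside the mitochondrial genome 2 synthetases fell, beside 5.43% of all genes. None was higher at an unadjusted p under 0.05 or in voom. The smallest p belonged to Yars2 (8.61 ± 0.473 to 6.61 ± 0.462 FPKM, log2 fold change -0.36, limma adjusted p = 0.00902), followed by Aars2 (-0.41, 0.0149), Ears2 (-0.34, 0.0197) and Cars2 (-0.36, 0.0307). With that scaling Ears2 and Cars2 lost their calls (0.0591 and 0.0656), and Cars2 also did so without hypoxia replicates 4 and 5 (0.0748). Of 15 translation factors, 5 fell, among them the initiation factor Mtif3 (-0.48, adjusted p = 0.00659), the elongation factors Gfm1 (-0.61, 0.0113) and Tufm (-0.57, 0.0168), and the ribosome recycling factor Gfm2 (-0.44, 0.0131).

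Of 19 assembly factors of complex IV, 6 fell and the median was -0.23. The copper chaperone Cox11, which serves mt-Co1, went from 5.18 ± 0.818 to 2.78 ± 0.378 FPKM (limma log2 fold change -0.79, adjusted p = 0.00341) and Pet100 from 6.44 ± 0.578 to 3.78 ± 0.692 FPKM (-0.71, 0.00452). Cox19, which helps copper delivery, was at -0.42 (0.0131) and the haem A synthase Cox15 at -0.46 (0.0141). In each of these 4 genes the groups did not overlap, beside 8.54% of all genes tested that were lower without overlap. The 4 were picked by smallest p, so the lack of overlap largely follows from that choice. Of 6 assembly factors of ATP synthase, 0 passed the test, with 1 lower at an unadjusted p under 0.05 (16.8% of all genes) and 0 in voom. The most abundant were Tmem70 (-0.07, adjusted p = 0.650) and Fmc1 (-0.16, adjusted p = 0.328). The sign of Tmem70 turned with scaling to the reads outside the mitochondrial genome (0.031). Leaving out hypoxia replicates 4 and 5 gave -0.006 for Tmem70 and -0.074 for Fmc1.

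The nuclear-encoded partners in the same complexes were set beside the mitochondrial subunits. Of 79 nuclear subunits tested, 22 fell and 1 rose, and of 13 mitochondrial ones 3 fell and 0 rose. Of all genes tested, 7.79% fell and 3.66% rose. The counts for single complexes below were not tested against these shares. A negative log2 fold change was seen in 76 of 79 nuclear and 7 of 13 mitochondrial subunits, beside 7380 of 15264 genes tested. The medians of the subunits were -0.35 and -0.03. For the 5 mitochondrial genes with at least 90% of windows in nuclear transcripts, among them mt-Co2 and mt-Atp6, the median was -0.45. It was 0.20 for the 6 genes under 50%, leaving out mt-Atp8 (-2.09). How reads were divided between the 5 genes and their nuclear copies is not known. In complex I, 14 of 36 nuclear subunits fell (median -0.34, Ndufs6 -1.15 and Ndufa1 -1.19), beside 0 of 7 mitochondrial ones (median 0.08). In complex III, 2 of 9 fell (median -0.44, Uqcrq -0.72 and Uqcr11 -1.0), beside mt-Cytb at 0.22. In complex IV, 2 of 16 fell (Cox8a -0.56 and Cox5b -0.65) and 1 rose, Cox6b2 (0.44), beside the decrease of mt-Co2 (-0.89) and the uncalled mt-Co1 (0.24) and mt-Co3 (-0.19). With scaling to the reads outside the mitochondrial genome the complex IV count was 1 lower and 2 higher, beside 5.43% and 6.66% of all genes. Cox5b lost its call there (adjusted p = 0.0514) and without hypoxia replicates 4 and 5 (0.0792), and Cox6b2 lost its call in 9 of 10 fits without 1 library and in voom (0.103). In ATP synthase 4 of 18 nuclear subunits fell (Atp5g1 -0.49, Atp5k -1.37, Atp5d -0.58 and Atp5e -0.42), beside 2 of 2 mitochondrial ones. Of these 2, mt-Atp6 was not called without hypoxia replicates 4 and 5, and mt-Atp8 had at most 65 reads in a library. Atp5e was not called without hypoxia replicates 4 and 5 (adjusted p = 0.0506), and Atp5k was at -0.82 there. Without hypoxia replicates 4 and 5 the nuclear median was -0.24 with 23 lower, beside 7.75% of all genes tested. The mitochondrial median was then 0.06. With scaling to the reads outside the mitochondrial genome, the medians of nuclear complex I and mitochondrial complex I genes were -0.25 and 0.18. The difference between nuclear and mitochondrial subunits was not tested.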

How the data were processed

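Per the labels, kidney RNA was sequenced in 5 control and 5 hypoxia libraries. The authors deposited 1 table of FPKM, which also lists gene lengths in bases (an other unit). Per the submitters' processing notes reads were aligned with HISAT2 2.0.5, and the human build hg38 is listed, although the identifiers are those of the mouse. Of 55141 identifiers found in a GRCm38 annotation, 99.4% had identical coordinates, as had all 37 mitochondrial genes, so coordinates are given as GRCm38. Which counter was used, with which annotation release, and how strand and multiply matching reads were handled is not given in the sources used here.

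Multiplied by length, 100% of FPKM values were whole multiples of what 1 read is worth in their library (tolerance 0.05), which gave whole reads. None of 20 pairs of libraries of a group agreed within sampling noise (lowest chi-square per degree of freedom 8.9). Floors are 3 reads and, like read counts, cover counting error only. The library size implied by the FPKM values was 0.949 to 1.03 times the sum of recovered reads in controls and 0.998 to 1.1 times in hypoxia. The deposited values thus already hold a library scaling that differs from that sum, and how it was set is not given. Values were not scaled further. The 15264 genes whose mean reached 0.5 FPKM entered a two-sided test for group alone in limma 3.58.1 (R 4.3.3), on log2(FPKM + 0.5), by lmFit and by eBayes with trend and robust, p-values adjusted by Benjamini-Hochberg and called under 0.05. The voom fit took the recovered reads with TMM scaling. The script was run on simulated counts with the same dispersion for all genes and no outlying library, which tests the code and not the spread of these data. Sums, shares, ratios and lists were described without tests.

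Nuclear copies were sought in GRCm38 transcripts (GENCODE) of other chromosomes, since no genome sequence was used. Pseudogenes were named at 95% identity, 500 matched bases and 10 reads, and the adjoining transcripts on chromosome 1 were joined for the length. All protein-coding and rRNA genes and the 8 most abundant tRNA genes were named, and from each list up to 4 called members with the smallest p, or the 2 most abundant where none was called. The genes and lists were chosen with earlier results of these data known. Sequences come from the same transcripts. Alternatives covered pseudocounts, filters, scaling, error model, voom, a replicate block, window length and the omission of libraries. Python 3.11.15 with matplotlib 3.10.9 drew the figures.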

Additional observations from a re-analysis of the deposited data

Results flagged for a closer look

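In groups of 5 libraries, a gene was listed here when its highest or lowest library lay further from the nearest other than Dixon's 95% critical value of 0.71 of the group's range. Among 72 groups checked, 6 met this, and chance gives about 5% of groups. Control replicate 5 was low for mt-Atp6, at 147.1 FPKM against 503.7 to 641.7 FPKM in the other controls. Hypoxia replicate 4 was high for mt-Co3, at 608.9 FPKM against 96.1 to 161.8 FPKM. Hypoxia replicate 5 was low for mt-Nd3, at 39.4 FPKM against 83.0 to 99.9 FPKM. Among the nuclear copies, Gm28438 (mt-Nd3) was high in control replicate 1, at 33.6 FPKM against 15.9 to 19.7 FPKM, and Gm28439 (mt-Nd4) in hypoxia replicate 5, at 88.9 FPKM against 47.4 to 52.3 FPKM. The widest gap was that of Gm29216, the copy of the end of mt-Co1, with 789.8 FPKM in hypoxia replicate 5 against 75.5 to 128.2 FPKM. That library held 7083 reads on Gm29216 where the other 9 held 594 to 1081, while its mt-Co1 level of 19045 FPKM was the lowest of the hypoxia libraries.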

How the results depend on the processing

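The limma test called 559 genes higher and 1189 lower. Scaling to the reads outside the mitochondrial genome gave 1018 and 830. Scaling to the sum of recovered reads, chosen after seeing the data, gave 800 and 951. Both scalings take their read sum in place of the library size in the deposited FPKM. They moved the median of all genes to 0.097 and 0.074. mt-Co2, mt-Atp8 and mt-Atp6 remained lower under both, under both other pseudocounts, filters at 0.1 and 1 FPKM, median-of-ratios scaling, the plainer error model and voom. With no filter on low values, calls went from 1748 to 966, mitochondrial calls from 3 to 0, machinery genes lower from 24 to 15 and nuclear subunits lower from 22 to 11, with 30650 genes tested. With the replicate block these were 999, 1 (mt-Atp6, adjusted p = 0.0298, with mt-Co2 at 0.0714 and mt-Atp8 at 0.0526) and 15 machinery genes. Libraries share only a number: same-numbered ones correlated at -0.0771 to 0.0861, and 1 of 5 controls did so best with its own number. Leaving out 1 library gave 824 (without control replicate 1) to 2724 calls (without hypoxia replicate 5), 0 (without control replicate 1) to 7 mitochondrial calls (without hypoxia replicate 5), 0 (without control replicate 1 or 2) to 3 mitochondrial genes lower, 0 to 4 higher, 13 to 30 machinery genes lower and 7 to 38 nuclear subunits lower. It gave a median of -0.091 to 0.097 for the 13 genes and a rise in the mitochondrial share of reads of 1.25 to 2.20 percentage points, against 1.65. The 4 higher genes, without hypoxia replicate 5, were mt-Co1, mt-Cytb, mt-Nd6 and mt-Tw. 1 gene was higher without control replicate 2 (mt-Tq, at most 9 reads in a library), 1 with scaling to the reads outside the mitochondrial genome (mt-Tr) and 1 without hypoxia replicates 4 and 5 (mt-Tn). As a share of summed FPKM the rise was 3.28 points. The share of protein-coding reads in genes with a nuclear copy differed by -0.899 points (9.35 ± 0.585 to 8.46 ± 0.361%), but by 0.864 with windows of 50 bases, which add mt-Co1.

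Signs turned for genes that were not called. With scaling to the reads outside the mitochondrial genome the log2 fold change became 0.067 for mt-Nd2, 0.027 for mt-Tp, 0.018 for mt-Ts2, 0.067 for Gm28439, 0.070 for Gm28437 and 0.031 for Tmem70. With scaling to the sum of reads it was 0.041 for mt-Nd2, 0.001 for mt-Tp, 0.041 for Gm28439, 0.044 for Gm28437 and 0.005 for Tmem70. Without hypoxia replicates 4 and 5 it was 0.057 for mt-Nd2, 0.013 for mt-Tp, 0.065 for mt-Ty (-0.49 with all libraries) and 0.068 for Gm28437. Without 1 library it ranged from -0.091 to 0.097 for mt-Nd2, -0.655 to 0.009 for mt-Co3, -0.65 to 0.064 for mt-Nd4l, -0.139 to 0.055 for mt-Tp, -0.096 to 0.179 for mt-Tc, -0.248 to 0.024 for mt-Ts2, -0.194 to 0.054 for Gm28439 and -0.127 to 0.067 for Gm28437. The cause was not tested. mt-Atp8 and the scarce tRNA genes are limited by depth.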
